A study of Mus musculus with 6 samples.

Results

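C1q-high skin macrophages were described across 3 groups of NINJA mice, with 944 cells of 21178 meeting the definition (4.46%). A cell was included when C1qa, C1qb and C1qc together reached 10 UMIs (unique molecular identifiers, each standing for 1 captured RNA molecule) per 10000 of the cell's UMIs, when at least 2 of Csf1r, Lyz2, Adgre1, Fcgr1, Ms4a7 and Aif1 had a UMI, when Cd207, Cd3e and Cd3g had none, and when Krt5 plus Krt14 stayed under 20 per 10000. Members were thus chosen by measured values of 14 genes, whose levels are given only as a description. The cells came from skin of mice aged 6 to 12 weeks, from the area treated with 4-OH-Tam (4-hydroxytamoxifen), and each mouse gave 1 library made with the 10x Chromium 5' kit. The groups were NO_AG (antigen off), AG (antigen on) and AG_CPI (antigen on with CPI, an abbreviation that the labels do not expand), with 2 mice in each. NINJA mice carry an allele that can be switched on to make a neoantigen, and P14 CD8 T cells carry a transgenic T cell receptor. Before sequencing, the submitters checked each animal for visible skin disease and for P14 cells in its skin. The labels call the mice of a group biological replicates, and 2 per group limit every comparison.

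Tissue macrophages are phagocytes that clear dead cells and debris, and C1q, the first component of the classical complement pathway, is made largely by macrophages and assembles from 3 chains encoded by neighbouring genes. In mouse mm10 coordinates the 3 genes lie together on chromosome 4: C1qb at chr4:136880126-136886200, C1qc at chr4:136889801-136892936 and C1qa at chr4:136895916-136898844. Resident dermal macrophages typically carry scavenger and lectin receptors such as Mrc1 (CD206) and Cd163. Interferon-gamma from T cells is known to turn macrophages towards antigen presentation and towards chemokines that attract T cells.

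The members held 61311 and 67019 UMIs in the NO_AG mice, against 817882 to 1761754 in the other 4, so 3 UMIs corresponded to 0.489 and 0.448 per 10000 in NO_AG and to 0.0170 to 0.0367 elsewhere. Median UMIs per member were 2395 and 2836 in NO_AG, 6702 and 3585 in the AG mice and 5621 and 5990 in the AG_CPI mice. Of 1458 cells that reached the C1q threshold, 211 were left out for too few myeloid genes, 188 for Cd3e or Cd3g, 98 for Krt5 plus Krt14 and 86 for Cd207, and some failed on more than 1 of these. C1q also reached the threshold in 7.29% (95% Wilson interval 6.11 to 8.67) of keratinocyte-gated cells of the second AG mouse and in 4.73% (2.78 to 7.92) of those of the second AG_CPI mouse, against 0% to 2.69% in the other 4 mice, at median depths of 2160 to 6890 UMIs. In T-gated cells it did so in 7.53% (6.48 to 8.73) in the second AG mouse and in 1.13% to 3.06% in the other 3 antigen mice, against 0.203% and 0.189% in NO_AG. These intervals cover counting error only. The libraries shared 259 cell barcodes over all pairs, 1 of them among members. In the first AG_CPI mouse 15.3% of members had a UMI of the Y-linked gene Ddx3y and 0.526% one of Xist, whereas members of the other 5 mice had no Ddx3y UMI and 53.3% to 70.3% of them had one of Xist. In that mouse Xist averaged 0.0337 per 10000 in members, 0 in keratinocyte-gated cells and 4.46 in T-gated cells. The labels give no sex. Counts with an AG_CPI mouse left out are given with the tests, without stating which mouse each count belongs to.

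The members carried macrophage genes beyond those of the definition. Cd68, a lysosomal glycoprotein of macrophages, averaged 2.78 and 2.50 per 10000 in NO_AG, 5.39 and 5.70 in the AG mice and 5.0 and 5.21 in the AG_CPI mice. Mertk, a receptor for dying cells, lay between 0.111 and 0.774 in the 6 mice. Summed over each list, markers of other cell types were low in the members: 9 T cell genes outside the definition summed to 0 to 0.677 per 10000, 7 keratinocyte genes to 0.842 to 2.15 and 8 dendritic cell genes to 0.0755 to 1.00. Xcr1 (dendritic), Retnlg (neutrophil), Cpa3 and Tpsb2 (mast cell), Lum (fibroblast), Cldn5 (endothelial) and Cd79a (B cell) were at 0 UMIs in the members of all mice. The highest of these sums were 2.80 for 3 Langerhans cell genes in the second NO_AG mouse, led by Mfge8, and 2.15 for keratinocyte genes in the second AG mouse. Of 6 tested keratinocyte genes 3 (Krt1, Sfn and Dsp) were higher in AG and 1 (Krt1) in AG_CPI than in NO_AG in the test described below, and of T cell genes Gzma in AG_CPI. With members limited to cells without a UMI of Cd3d, Trac, Trbc1, Trbc2, Krt5 and Krt14, 668 genes were higher and 55 lower in AG and 707 higher and 62 lower in AG_CPI, of 5895 tested, and no call changed direction. Of the C1q genes, C1qb averaged 35.7 and 51.1 in NO_AG, 72.7 and 55.9 in the AG mice and 59.6 and 67.0 in the AG_CPI mice, and 94.7% of members had all 3. The lowest C1q sum inside the definition was 10.6 per 10000 and the highest outside it, among cells that met its other parts, was 9.23. Ms4a7, a membrane protein of macrophages used in the definition, stood at 3.62 and 3.18 in NO_AG and between 10.1 and 17.3 in the other mice, and Lyz2 at 64.2 and 95.2 against 29.8 to 85.3.

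C1q-high macrophages made up a small share of the NO_AG skin and a larger one of the AG and AG_CPI skin. They were 0.402% (20 of 4972 cells, 95% Wilson interval 0.261 to 0.621) and 0.366% (15 of 4095, 0.222 to 0.604) of the NO_AG cells. In AG they were 3.43% (120 of 3503, 2.87 to 4.08) and 9.09% (424 of 4664, 8.30 to 9.95), and in AG_CPI 10.9% (190 of 1736, 9.56 to 12.5) and 7.93% (175 of 2208, 6.87 to 9.13). Both AG and both AG_CPI mice lay above both NO_AG mice, while the AG and AG_CPI mice overlapped. The mean log2 odds differed by 3.91 between AG and NO_AG (exact permutation p = 0.33, two-sided), by 4.70 between AG_CPI and NO_AG (exact permutation p = 0.33) and by 0.79 between AG_CPI and AG (exact permutation p = 0.667). With 2 mice against 2 no p can go below 0.33. A share of all cells also moves with the other cells: keratinocyte-gated cells numbered 2430 and 1775 in NO_AG, 967 and 1591 in the AG mice and 149 and 275 in the AG_CPI mice, and T-gated cells (a UMI of Cd3e or Cd3g) 1475 and 1585, then 2030 and 2125, then 1276 and 1588. The second AG mouse held 424 members beside 1591 keratinocyte-gated cells, and the second NO_AG mouse 15 beside 1775.

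Among myeloid-gated cells, which meet every part of the definition except the C1q threshold, C1q-high cells were the majority in all mice. They were 71.4% (20 of 28, 52.9 to 84.7) and 75% (15 of 20, 53.1 to 88.8) in NO_AG, 83.9% (120 of 143, 77 to 89.0) and 77.2% (424 of 549, 73.5 to 80.5) in AG, and 88.0% (190 of 216, 82.9 to 91.7) and 92.6% (175 of 189, 88.0 to 95.5) in AG_CPI. The 3 groups did not overlap, and the differences in mean log2 odds were 0.68 (AG minus NO_AG), 1.16 (AG_CPI minus AG) and 1.84 (AG_CPI minus NO_AG), each at the exact permutation floor of p = 0.33. The definition itself uses C1q, so this share describes how C1q is spread over the myeloid cells of each mouse. Median UMIs of C1q-low cells were 3809 and 4122 in NO_AG against 3070 to 5470 in the other mice.

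**Figure D1:**
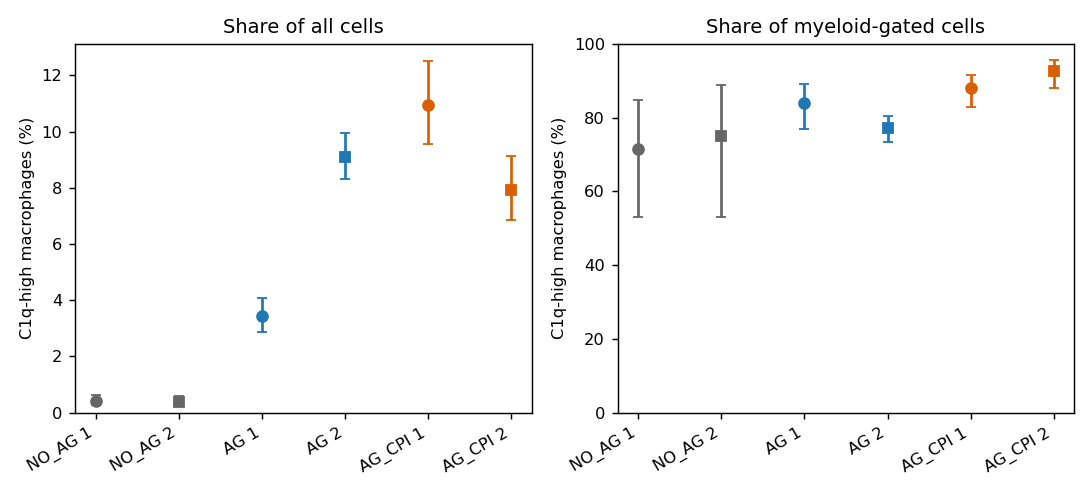
Share of C1q-high macrophages (y axis, percent) in each mouse (x axis), of all cells on the left and of myeloid-gated cells on the right; points are single mice and bars are 95% Wilson intervals, which cover counting error only. Both NO_AG mice sit under 0.5% of all cells, below the 4 mice with antigen, at 3.43% to 10.9%.

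Gene levels were compared between groups as each mouse's mean over its members, in UMIs per 10000, on the log2(level + 0.1) scale after scaling between mice, with limma's moderated test and Benjamini-Hochberg adjustment over 6571 genes. At an adjusted p under 0.05, 790 genes (12.0% of those tested) were higher and 95 (1.45%) lower in AG than in NO_AG, and 849 (12.9%) were higher and 88 (1.34%) lower in AG_CPI than in NO_AG. No gene passed between AG_CPI and AG, where limma gave 104 genes an unadjusted p under 0.05. The first 2 comparisons share the same NO_AG mice. The median of all genes lay at 0.43 and 0.44 in the 2 comparisons with NO_AG, and at 0.14 and 0.15 with the deposited scaling alone. The split of calls moved with it, from 89.3% higher to 74.1% for AG and from 90.6% to 70.7% for AG_CPI. With each cell thinned to 1000 UMIs it moved the other way, to 775 higher and 13 lower (98.4% higher) in AG and 769 and 15 (98.1%) in AG_CPI, of 2722 tested genes with medians of 1.31 and 1.36. Of the genes called lower in the first fit, Ap2a2 in both comparisons, Calm2 and Rab3il1 in AG and Ap1b1 in AG_CPI had a positive difference after thinning, none of which passed (limma). Of the genes called higher, 295 of 790 in AG and 325 of 849 in AG_CPI had no UMI in either NO_AG mouse. For 216 and 233 of these the antigen group's mean lay under 0.234 per 10000, the level of 3 UMIs over both NO_AG mice, so that a difference was not detectable at this depth despite the call. Among listed genes these were Gbp6, Ifi44 and Cmpk2 in both comparisons, Ifit3b and Top2a in AG, and Mx1, Cxcl3, C1ra, Krt1 and Gzma in AG_CPI, and the list counts below include them. A stricter fit, chosen after seeing the data, kept 1223 genes that averaged at least 1 per 10000 and used a pseudocount of 0.5 and the deposited scaling. It called 208 genes (17.0%) higher and 123 (10.1%) lower in AG, and 205 (16.8%) higher and 156 (12.8%) lower in AG_CPI. With a mouse left out, its group keeps 1 mouse that is assumed to vary like the other groups. Without either AG mouse the AG count went from 885 to 0, without either AG_CPI mouse it went to 7, and without either NO_AG mouse it rose to 3056 or 3185. The AG_CPI count of 937 went to 0 or 5 without an AG_CPI mouse, to 146 or 150 without an AG mouse, and to 3071 or 3256 without a NO_AG mouse. No gene called in the 2 comparisons changed direction in any of these. Below, a gene is said to rise or fall only where it passed in the first fit, and the stricter fit's counts are given beside each list, with those of the deposited scaling alone where they differ by more than 1.5 times. That scaling alone called 392 higher and 137 lower of 6456 genes in AG, and 461 higher and 191 lower in AG_CPI. The shares of all tested genes called in each fit are the background for every list count below. Of the genes called higher, 285 (AG) and 286 (AG_CPI) were tested in the stricter fit, which called 206 and 200 of them higher; of 48 and 46 called lower it called 48 and 46 lower.

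Genes typical of resident dermal macrophages were lower in C1q-high macrophages of both antigen groups. Of all tested genes, 40.7% had both AG mice above both NO_AG mice and 12.2% had both below, and for AG_CPI these shares were 42.2% and 13.4%. Of 20 listed resident genes 13 were tested, and 12 fell in AG and 12 in AG_CPI (background 1.45% and 1.34%), with list medians of -2.99 and -3.57 beside 0.43 and 0.44 for all genes. The stricter fit tested 11 of them and called 11 lower in each comparison, and after thinning 6 and 7 of 8 tested were lower. Stab1, a scavenger receptor, did not pass, at 0.762 and 0.761 per 10000 in NO_AG and 0.528 to 0.834 in the others. Because the levels are means over cells, fewer cells of one kind and less RNA per cell cannot be told apart in them.

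Mrc1, the mannose receptor, averaged 11.8 and 15.2 per 10000 in NO_AG, 1.38 and 1.49 in the AG mice and 0.893 and 0.823 in the AG_CPI mice. All 4 mice with antigen lay below both NO_AG mice, and the log2 difference was -2.73 (SE 0.25, adjusted p = 0.00375) for AG and -3.41 (SE 0.25, adjusted p = 0.00126) for AG_CPI, both by limma. Cd163, the scavenger receptor for haemoglobin bound to haptoglobin, averaged 3.18 and 3.52 in NO_AG and 0.0678 to 0.152 in the others (log2 difference -3.72, SE 0.40, and -3.62, SE 0.40). Folr2, a folate receptor of resident macrophages, stood at 9.26 and 14.6 in NO_AG, 1.27 and 0.472 in the AG mice and 0.411 and 0.380 in the AG_CPI mice. The lectins Clec10a (9.0 and 8.64 against 0.223 to 1.19) and Mgl2 (23.4 and 8.86 against 0.391 to 2.25) had no overlap between NO_AG and the antigen mice either.

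Retnla (resistin-like alpha, a secreted protein of alternatively activated macrophages) averaged 145 and 299 per 10000 in NO_AG and stood at 28.6 and 13.3 in AG and at 3.36 and 4.66 in AG_CPI. It fell by 2.99 in AG (SE 0.49, adjusted p = 0.0163, limma) and by 5.26 in AG_CPI (SE 0.49, adjusted p = 0.0029, limma) on the log2 scale, and the 3 groups did not overlap. Selenop, a selenium transport protein, averaged 25.2 and 34.1 in NO_AG and 1.82 to 2.92 in the 4 other mice. Pf4 (a platelet-type chemokine, also called CXCL4) averaged 16.9 and 12.1 against 1.42 to 2.34, F13a1 (a clotting factor subunit) 14.1 and 11.5 against 0.619 to 1.23, and the growth factor Igf1 8.37 and 2.85 against 0.124 to 0.352. The complement protein C4b (5.51 and 6.23 against 0.30 to 0.652) and the Mertk ligand Gas6 (1.99 and 4.45 against 0.0221 to 0.389) also fell in both comparisons. Fcrls, an Fc receptor-like protein of resident macrophages, averaged 2.86 and 2.82 against 0.0427 to 0.163. Serinc3, a membrane protein, averaged 6.74 and 6.43 against 0.853 to 1.29, and the lipid transporter Abca9 2.12 and 1.81 against 0.0449 to 0.153. Abca9 averaged too little for the stricter fit.

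**Figure D2:**
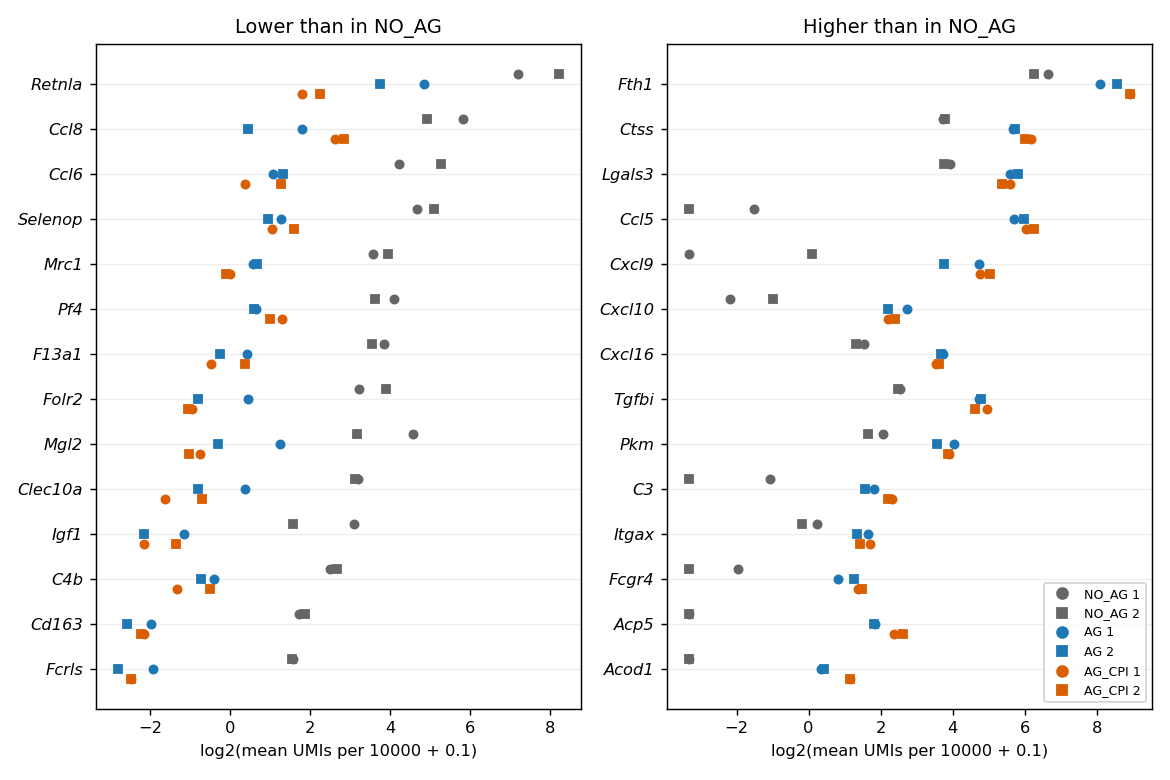
Mean level of 28 genes in the C1q-high macrophages of each mouse (x axis, log2 of mean UMIs per 10000 plus 0.1); each row is a gene, each point a mouse, circles are the first and squares the second mouse of a group, and genes at the left edge of the right panel had no UMI. NO_AG mice lie to the right of the antigen mice in the left panel (Retnla 145 and 299 against 3.36 to 28.6) and to the left of them in the right panel (Ctss 13.3 and 13.6 against 51.3 to 72.5).

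The chemokines of these macrophages changed in both directions. Of 22 listed chemokine genes 18 were tested: 7 rose and 4 fell in AG, and 8 rose and 5 fell in AG_CPI. List medians were 0.22 and 1.03, and of all tested genes 12.0% and 12.9% rose and 1.45% and 1.34% fell. The stricter fit tested 14 and called 6 higher and 5 lower, then 5 higher and 6 lower. Ccl5, which attracts T cells, had 1 UMI in the NO_AG members together and averaged 0.253 and 0 per 10000 there, 52.0 and 63.6 in the AG mice and 65.0 and 76.2 in the AG_CPI mice. The ratio of pooled UMIs was 701 in AG (exact 95% interval from 126, for counting error only) and 842 in AG_CPI (from 151), and the adjusted p was 0.0008 and 0.000629 by limma. T-gated cells held a like amount of Ccl5 in those 4 mice, 65.1 to 85.8, and keratinocyte-gated cells held 0.203 and 5.44 in the AG mice and 0.782 and 4.54 in the AG_CPI mice. The part of free T cell RNA in the members' Ccl5 was not tested.

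Cxcl9 and Cxcl10, interferon-induced ligands of Cxcr3, a chemokine receptor of T cells, were low in NO_AG and high in both antigen groups. Cxcl9 averaged 0 and 0.965 per 10000 in NO_AG, 26.6 and 13.6 in the AG mice and 26.8 and 32.7 in the AG_CPI mice, with log2 differences of 6.09 (SE 0.93, adjusted p = 0.0143, limma) and 6.73 (SE 0.93, adjusted p = 0.00889, limma). Among members, 0 of 20 and 1 of 15 had a Cxcl9 UMI in NO_AG, and 83.3% and 63.4% in the AG mice and 77.4% and 84.6% in the AG_CPI mice. After thinning each cell to 1000 UMIs these shares were 0% and 6.67%, 70.0% and 44.1%, and 62.6% and 66.9%. A Cxcl9 UMI was also present in 18.3% to 46.2% of keratinocyte-gated cells with antigen, and 2.10% to 19.9% of T-gated cells. Cxcl10 averaged 0.119 and 0.404 in NO_AG, 6.54 and 4.51 in the AG mice and 4.51 and 5.2 in the AG_CPI mice (log2 differences 4.36, SE 0.43, and 4.21, SE 0.43). Cxcl16, the membrane-bound ligand of Cxcr6, averaged 2.80 and 2.37 in NO_AG and 11.4 to 13.1 in the 4 other mice, which differed little among themselves.

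The promoters of Cxcl9, Cxcl10 and the interferon-induced gene Isg15 are shown because these genes rose together. Each is the 250 bases before the RefSeq start (GRCm38.p6, the assembly of mm10), on the minus strand and written 5′ to 3′, with capitals for matches to 3 motifs searched on both strands: the interferon-stimulated response element as GAAA, any 2 bases and GAAA, the GAS (gamma-activated) site as TTCNNNGAA, and a kappaB-like site as GGGNNTTCC.
Cxcl9 chr5:92328080-92328329: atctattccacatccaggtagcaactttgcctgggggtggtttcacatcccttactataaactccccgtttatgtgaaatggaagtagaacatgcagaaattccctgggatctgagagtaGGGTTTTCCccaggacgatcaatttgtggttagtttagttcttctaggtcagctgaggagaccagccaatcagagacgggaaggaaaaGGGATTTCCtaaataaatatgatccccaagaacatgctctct
Cxcl10 chr5:92348890-92349139: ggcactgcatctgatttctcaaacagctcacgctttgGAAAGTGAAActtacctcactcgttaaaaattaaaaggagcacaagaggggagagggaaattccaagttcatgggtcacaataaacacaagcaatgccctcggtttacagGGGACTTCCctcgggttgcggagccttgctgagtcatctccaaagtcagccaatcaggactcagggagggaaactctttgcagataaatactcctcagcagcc
Isg15 chr4:156200819-156201068: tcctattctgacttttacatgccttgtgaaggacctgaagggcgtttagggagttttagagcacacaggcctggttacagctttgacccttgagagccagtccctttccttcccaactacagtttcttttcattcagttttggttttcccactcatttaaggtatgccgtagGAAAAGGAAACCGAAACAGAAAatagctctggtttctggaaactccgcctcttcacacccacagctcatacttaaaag
Cxcl9 held 2 kappaB-like matches, 130 and 42 bases before the start, and Cxcl10 held 1 response element and 1 kappaB-like match, 213 and 103 bases before it. Isg15 held 3 overlapping response elements, from 78 bases before the start. None of the 3 held the GAS letters, and the same stretch before Irf7, which rose too, held none of the 3 motifs. The response element was found before 3.04% of 27025 genes, the GAS letters before 7.18% and the kappaB-like letters before 4.88%. Among the tested interferon-gamma response genes with an entry, 9 of 18 held the response element, 7 the GAS letters and 3 the kappaB-like letters, and among those of the type I interferon list 7, 3 and 1 of 16. A match describes letters in this window and not a bound site.

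Ccl8, a ligand of Ccr8, averaged 55.9 and 30.1 per 10000 in NO_AG, 3.37 and 1.26 in the AG mice and 6.07 and 7.08 in the AG_CPI mice. Ccl6 averaged 18.5 and 38.4 against 1.19 to 2.38, and Ccl9 6.34 and 4.68 against 1.42 to 2.41. The inflammatory chemokine Ccl4 rose from 1.54 and 0.457 to 6.79 and 8.16 in AG, and stood at 1.91 and 3.83 in AG_CPI, where it passed the first fit but not the stricter one. Cxcl2, a neutrophil attractant, rose from 1.84 and 1.88 to 3.63 and 3.54 in AG and to 7.47 and 5.43 in AG_CPI. The monocyte attractant Ccl2 did not pass, at 0.725 and 0 in NO_AG and 0.0816 to 0.283 in the antigen mice.

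Of 25 tested interferon-gamma response genes, 15 rose and none fell in AG and 16 rose and none fell in AG_CPI (background 12.0% and 12.9%). Medians were 1.52 and 1.66, and 2 of the genes that rose in each had no UMI in NO_AG. The list shares Tap1, Tap2, Psmb8, Psmb9 and Psmb10 with the class I list and Cxcl9 and Cxcl10 with the chemokines. It also shares Cd274 with the costimulatory and checkpoint list and Fcgr4 with the Fc receptors, so these counts are not separate. The stricter fit tested 13 of them and called 9 and 10 higher. Gbp2, a guanylate-binding protein of cell-autonomous defence, averaged 1.37 and 1.77 in NO_AG, 3.71 and 3.37 in the AG mice and 5.30 and 3.78 in the AG_CPI mice. Serpina3g, a protease inhibitor, averaged 0.0493 and 0 in NO_AG and 1.30 to 1.65 in the others. Irf1 and Irf8, interferon regulatory factors, passed in neither comparison.

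Of 22 tested genes of the type I interferon response, 12 rose in AG and 8 in AG_CPI and none fell, with medians of 1.84 and 1.31. The background of all tested genes that rose was 12.0% and 12.9%. The stricter fit tested 5 and called 4 and 3 higher, the deposited scaling alone 4 and 2 of 22, and median-of-ratios scaling 6 and 4. Of the genes that passed, 4 and 3 had no UMI in NO_AG, of which 3 in each averaged under the level of 3 UMIs in NO_AG. Isg15, a ubiquitin-like protein, averaged 0.821 and 3.03 in NO_AG, 12.8 and 13.3 in the AG mice and 5.89 and 8.64 in the AG_CPI mice. Irf7, which amplifies interferon signalling, averaged 0.391 and 0.370, then 4.09 and 3.18, then 1.51 and 2.50. Zbp1, a nucleic acid sensor, averaged 0.20 and 0.916 in NO_AG, 2.61 and 2.39 in the AG mice and 1.70 and 2.28 in the AG_CPI mice. In these 3 genes the AG_CPI mice lay between the other groups without overlap.

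In class II presentation 5 of 10 tested genes rose and none fell in each comparison (medians 1.45 and 1.25), and the stricter fit called 5 of 8 higher in each. Among all tested genes 12.0% and 12.9% rose, and 17.0% and 16.8% were higher in the stricter fit. H2-Ab1, a chain of the class II molecule, averaged 49.8 and 64.3 in NO_AG, 182 and 137 in the AG mice and 129 and 142 in the AG_CPI mice. H2-Aa averaged 81.3 and 78.2, then 167 and 130, then 142 and 136. Cd74, the invariant chain, did not pass, at 218 and 273 in NO_AG and 288 to 426 in the others. Ctss, the protease that degrades the invariant chain, averaged 13.3 and 13.6 in NO_AG, 51.3 and 52.8 in the AG mice and 72.5 and 63.8 in the AG_CPI mice (log2 differences 2.36, SE 0.16, adjusted p = 0.0014, and 2.75, SE 0.16, adjusted p = 0.000711, limma). In class I presentation 14 of 21 genes rose in AG and 15 in AG_CPI and none fell (medians 1.42 and 1.30), with 11 and 13 of 16 in the stricter fit and 9 of 21 in each with the deposited scaling alone. B2m, the class I light chain, averaged 16.6 and 21.4 in NO_AG and 44.2 to 54.3 in the others, and the immunoproteasome subunit Psmb8 4.14 and 4.48 against 7.25 to 9.01.

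Among 16 tested genes of the costimulatory and checkpoint list, which holds ligands and receptors, 4 rose in AG and 5 in AG_CPI and none fell. These were Cd274, Pdcd1lg2, Cd40 and Pilra in AG, and Cd274, Cd40, Havcr2, Lilrb4a and Pilra in AG_CPI. Only Cd274 and Pdcd1lg2 of them are ligands. Of all tested genes 12.0% and 12.9% rose. The stricter fit called 2 of 7 in each, beside 17.0% and 16.8% of all its genes. With the deposited scaling alone 2 were higher in each and 1 was lower in AG_CPI. Cd40, the receptor for T cell help, averaged 0.20 and 0.561 in NO_AG, 2.63 and 1.94 in the AG mice and 1.42 and 2.01 in the AG_CPI mice. Cd274 (PD-L1) averaged 0.467 and 0.0481, then 0.875 and 1.23, then 1.62 and 1.32, on 3 UMIs over both NO_AG mice; from pooled UMIs the ratio to NO_AG was 4.36 for AG (95% exact interval 1.48 to 21.3, counting error only) and 6.12 for AG_CPI (2.07 to 29.8). Cd80 and Cd86, the ligands of CD28, did not pass in either comparison, with Cd86 at 0.236 and 1.65 in NO_AG and 1.04 to 1.43 in the others.

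Inflammatory cytokines and effectors rose or did not pass. Of 13 tested genes 7 rose in AG and 8 in AG_CPI (medians 2.08 and 2.90), of which 4 and 6 had no UMI in NO_AG, and the stricter fit called 3 of 4 in each. Among all tested genes 12.0% and 12.9% rose. Il1b averaged 2.31 and 1.52 in NO_AG, 5.16 and 7.83 in the AG mice and 13 and 9.24 in the AG_CPI mice, with no overlap between the 3 groups. Its antagonist Il1rn averaged 0.446 and 0, then 3.93 and 6.41, then 6.70 and 6.55. Acod1, which makes the antimicrobial metabolite itaconate, had no UMI in NO_AG and averaged 1.17 and 1.25 in the AG mice and 2.12 and 2.12 in the AG_CPI mice, at least 5.16-fold and 9.07-fold higher than the 0.234 per 10000 that 3 UMIs over both NO_AG mice stand for. Nos2, the inducible nitric oxide synthase, was likewise without a UMI in NO_AG and averaged 0.627 and 0.411 in the AG mice and 1.32 and 1.24 in the AG_CPI mice, at least 2.22-fold and 5.48-fold higher.

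Acp5, a lysosomal acid phosphatase, had no UMI in NO_AG and averaged 3.51 and 3.40 in the AG mice and 5.12 and 6.06 in the AG_CPI mice, at least 14.8-fold and 23.9-fold higher. Acp5 was at 0.235 to 1.19 in T-gated and keratinocyte-gated cells of the 6 mice. Fth1, the iron-storing ferritin heavy chain, averaged 101 and 76.4 in NO_AG, 274 and 376 in the AG mice and 489.9 and 486 in the AG_CPI mice, against 8.30 to 33.7 in T-gated and keratinocyte-gated cells. The galactoside-binding lectin Lgals3 averaged 15.2 and 13.3, then 48.6 and 56.0, then 48.3 and 41.4. Tgfbi, a matrix protein, averaged 5.74 and 5.45 against 24.4 to 30.7, the matrix protease Mmp14 0.826 and 0.746 against 3.93 to 5.91, and the cytokine Mif 6.12 and 6.16 against 15.7 to 19. Sod2, the mitochondrial superoxide dismutase, averaged 0.555 and 0.418 in NO_AG, 3.0 and 2.53 in the AG mice and 4.72 and 4.33 in the AG_CPI mice. The C-type lectin Clec4d had no UMI in NO_AG and averaged 0.761 and 1.16 in the AG mice and 2.37 and 2.21 in the AG_CPI mice.

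Of 5 Fc receptor genes 3 rose in AG and 4 in AG_CPI and 1 fell in each (background 12.0% and 12.9% higher, 1.45% and 1.34% lower). The stricter fit called 2 and 3 higher and 1 lower in each, without Fcgr2b in AG and Fcgr3 in AG_CPI. With the deposited scaling alone 2 were higher in each. The activating receptor Fcgr4 averaged 0.159 and 0 in NO_AG, 1.66 and 2.31 in the AG mice and 2.48 and 2.71 in the AG_CPI mice, a ratio of pooled UMIs of 27.5 (exact 95% interval 4.91 to 1090) and 33.5 (5.98 to 1320) on 1 UMI in NO_AG. Fcgrt, the neonatal Fc receptor that recycles antibody, fell from 3.36 and 5.61 to between 0.546 and 0.906. After thinning all 5 Fc receptor genes were tested, with 4 higher and none lower in AG, where Fcgrt thus did not pass. In AG_CPI 4 were higher and 1 lower. Of 12 complement genes outside the definition 3 rose and 2 fell in AG and 5 rose and 2 fell in AG_CPI, with 3 higher and 2 lower of 9 in the stricter fit for each and 2 and 2 with the deposited scaling alone. After thinning 10 were tested, with 5 higher and none lower in AG and 5 higher and 1 lower in AG_CPI. C3, the central complement protein, averaged 0.377 and 0 in NO_AG, 3.42 and 2.84 in the AG mice and 4.88 and 4.5 in the AG_CPI mice, and the complement receptor chain Itgax (CD11c) 1.08 and 0.783 against 2.45 to 3.17.

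Of 16 glycolysis genes 13 rose in AG and 14 in AG_CPI and none fell (medians 1.80 and 2.04), with 9 of 11 in the stricter fit for each. As a background for this and the next lists, 12.0% and 12.9% of all tested genes rose and 1.45% and 1.34% fell. In the stricter fit 17.0% and 16.8% were higher and 10.1% and 12.8% lower. Pkm, pyruvate kinase, averaged 4.13 and 3.06 in NO_AG, 16.3 and 11.8 in the AG mice and 14.8 and 14.5 in the AG_CPI mice. Gapdh averaged 8.82 and 7.24, then 23.3 and 20.8, then 36.5 and 28.2, and the lactate exporter Slc16a3 0.365 and 0.193 against 1.89 to 2.36. Of 17 lipid-associated genes 7 rose and 2 fell in AG and 8 rose and none fell in AG_CPI, and the stricter fit, with 13 tested, called 4 higher and 2 lower, then 7 higher and 2 lower. The deposited scaling alone gave 2 higher and 2 lower in AG and 7 higher in AG_CPI. Fabp5, a fatty acid carrier, averaged 2.12 and 0.896 against 4.17 to 12.2, whereas the lipid carrier Apoe averaged 87.3 and 156 in NO_AG, 33.7 and 14.7 in the AG mice and 39.8 and 48.7 in the AG_CPI mice and fell in AG. Of 13 scavenging and dead cell uptake genes 3 rose and 3 fell in AG and 3 rose and 2 fell in AG_CPI, and the stricter fit, with 7 tested, called 2 higher and 2 lower, then 3 higher and 2 lower. The deposited scaling alone gave 1 higher and 3 lower in AG, and thinning 3 higher and none lower of 10 in each comparison. Clec4n, a receptor for fungal sugars, averaged 0.936 and 0.991 in NO_AG, 3.31 and 3.30 in the AG mice and 7.25 and 5.02 in the AG_CPI mice. Of 21 lysosome genes 5 and 6 rose and none fell, with medians of 0.32 and 0.59 beside 0.43 and 0.44 for all genes, and the stricter fit, with 18 tested, called 4 higher and 1 lower, then 5 higher. The deposited scaling alone gave 3 higher and 1 lower, then 4 higher, and thinning 12 and 13 higher. Of 7 iron handling genes 1 rose and 1 fell in AG and 2 rose and 1 fell in AG_CPI, and the stricter fit, with 4 tested, called 1 higher and 2 lower, then 1 and 1, as the deposited scaling alone did in AG_CPI.

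Of 10 tested monocyte-derived genes 6 rose and 1 fell in AG and 8 rose and 1 fell in AG_CPI (stricter fit 3 and 1, then 2 and 1, of 6, and deposited scaling alone 4 and 1, then 5 and 1). As a background for the lists here, 12.0% and 12.9% of all tested genes rose and 1.45% and 1.34% fell. In the stricter fit 17.0% and 16.8% were higher and 10.1% and 12.8% lower. The gene that fell was Ccr2, the receptor that brings monocytes into tissue, at 3.63 and 2.94 in NO_AG, 0.773 and 1.00 in the AG mice and 0.705 and 0.430 in the AG_CPI mice. After thinning all 10 were tested, with 6 and 7 higher and none lower, so Ccr2 did not pass in either comparison. Of 11 alternative activation genes, which include Mrc1, Clec10a and Mgl2 of the resident list, 3 rose and 4 fell in AG and 2 rose and 5 fell in AG_CPI. The stricter fit tested 8 of them and called none higher and 5 lower in AG and 1 higher and 6 lower in AG_CPI, and the deposited scaling alone gave 1 higher and 4 lower, then 1 and 6. Of 14 macrophage identity genes 5 rose and 2 fell in AG and 6 rose and 1 fell in AG_CPI, and the stricter fit, with 11 tested, called 4 higher and 1 lower, then 6 and 2, against 4 and 2, then 4 and 3, with the deposited scaling alone. After thinning 12 of them were tested, with 6 and 7 higher and none lower. Of 20 transcription factors 4 rose and 2 fell in AG and 5 rose and 2 fell in AG_CPI, and the stricter fit, with 6 tested, called 2 higher and 2 lower, then 1 and 2, against 4 and 2, then 3 and 3, with the deposited scaling alone. Thinning left 15 tested, with 6 higher and none lower in each comparison. Maf, a factor of resident macrophages, averaged 3.74 and 4.30 in NO_AG and 0.528 to 0.917 in the others, and Cebpb 2.50 and 2.53 against 5.2 to 8.85. Of 7 cell cycle genes none passed in AG_CPI, and in AG the call was for Top2a alone, which had no UMI in NO_AG and averaged 0.192 in AG, under the level of 3 UMIs in NO_AG. Only 1 was tested in the stricter fit, and it did not pass. Of 15 dissociation and stress genes 1 fell in AG and 1 rose and 2 fell in AG_CPI. The stricter fit tested 13 and called none higher, 2 lower in AG and 5 lower in AG_CPI, and the deposited scaling alone gave 2 and 4 lower and none higher, while thinning gave 3 higher in AG and 1 higher and 1 lower in AG_CPI. Egr1, an immediate early gene, averaged 7.82 and 3.44 in NO_AG, 1.45 and 0.501 in the AG mice and 0.194 and 0.296 in the AG_CPI mice.

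**Figure D3:**
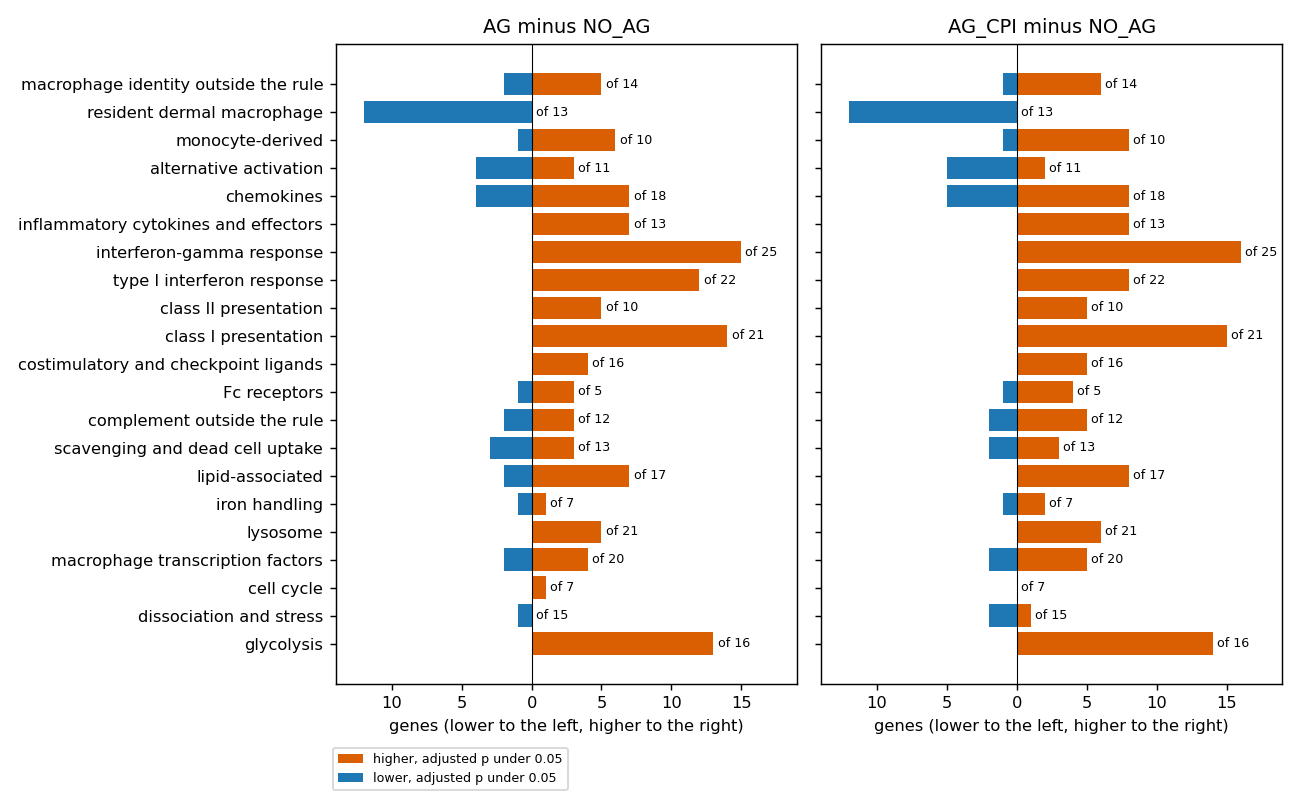
Number of tested genes of 21 functional lists that were higher (right, orange) or lower (left, blue) at an adjusted p under 0.05 by limma in AG (left panel) and AG_CPI (right panel) than in NO_AG; numbers beside the bars are genes tested. The resident dermal list has 12 of 13 genes lower in each panel and the glycolysis list 13 and 14 of 16 higher, and both panels share the NO_AG mice.

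Between AG_CPI and AG, which asks what CPI added in skin with antigen, no gene passed in the fit of all 6 mice. The smallest adjusted p was that of Saa3 (serum amyloid A3, an acute phase protein), at 0.289 by limma, with a log2 difference of 3.70 (SE 0.42). In a fit of the 4 antigen mice alone, chosen after seeing the data, 9 of 6419 genes were higher and 5 lower in AG_CPI, which is 0.140% and 0.0779% of those tested. Saa3 averaged 0.107 and 0.101 per 10000 in the AG mice and 3.03 and 1.94 in the AG_CPI mice (log2 difference 3.64, SE 0.25, adjusted p = 5.17e-06, limma). It had a UMI in 6.67% and 1.89% of AG members and in 19.5% and 14.9% of AG_CPI members, against at most 1.53% of keratinocyte-gated or T-gated cells of these mice. After thinning to 1000 UMIs those shares of members were 0.833%, 0.472%, 11.6% and 8.57%.

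The other 8 genes higher in AG_CPI in that fit included Il1a, an alarmin of the IL-1 family (0.00656 and 0.0311 against 0.353 and 0.259), and Clec4e, a receptor for mycobacterial glycolipid that pairs with Clec4d (0.471 and 0.732 against 2.24 and 1.93). Clec4d itself averaged 0.761 and 1.16 in the AG mice and 2.37 and 2.21 in the AG_CPI mice. Haptoglobin (Hp) averaged 0.00663 and 0.104 against 0.743 and 0.378, the protease Ctsl 2.24 and 2.94 against 6.37 and 4.85, and the ectoenzyme Cd38 0.189 and 0.274 against 0.662 and 0.752. The proteoglycan Sdc1 (0.287 and 0.244 against 0.893 and 1.08) and podoplanin, Pdpn (0.259 and 0.319 against 1.14 and 0.874), complete the 9. In each of these the 2 AG_CPI mice lay above the 2 AG mice.

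Lower in AG_CPI in that fit were Retnla (28.6 and 13.3 against 3.36 and 4.66, log2 difference -2.27, SE 0.29), Ccl24, Ccl4, Tppp3 and Plet1. Ccl24, an eosinophil attractant of the eotaxin family, averaged 7.58 and 6.19 in NO_AG, 1.62 and 14 in the AG mice and 0.457 and 0.156 in the AG_CPI mice (log2 difference between AG_CPI and AG -3.70, SE 0.63, adjusted p = 0.0286, limma). Its 2 AG mice were far apart, yet both lay above both AG_CPI mice. Ccl4 averaged 6.79 and 8.16 against 1.91 and 3.83. Tppp3 averaged 0.583 and 0.807 against 0.181 and 0.191. Plet1 had no UMI in AG_CPI members and averaged 0.174 and 0.243 in AG, on 1 of 120 and 7 of 424 members. A Plet1 UMI was in 22.12% and 13.08% of keratinocyte-gated cells of the AG mice, and in 15.86% and 12.98% in AG_CPI. All 6 tested keratinocyte genes had a negative difference between AG_CPI and AG in the fit of all mice (median -0.638), and none passed. The part of keratinocyte RNA in the members' Plet1 was not tested.

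The type I interferon list leaned one way between these groups. All 22 tested genes had a negative difference between AG_CPI and AG, 13 of them with both AG_CPI mice below both AG mice (18.5% of all tested genes were so placed, and 19.4% had both above), with a median of -0.43 against 0.00 for all genes. None passed the test. Isg15 at 12.8 and 13.3 against 5.89 and 8.64 and Irf7 at 4.09 and 3.18 against 1.51 and 2.50 were 2 of them. For these 2 genes the lean was also present outside the members. Isg15 was in 63.8% and 67.9% of keratinocyte-gated AG cells against 36.55% and 28.6% in AG_CPI, and in 25.5% and 44.6% against 13.3% and 18.6% of T-gated cells. Irf7 was in 29.4% and 21.7% against 6.21% and 12.2%, and in 16.5% and 17.6% against 6.95% and 11.1%. These shares are not thinned to 1 depth. In the interferon-gamma list 16 of 25 genes had a positive difference, with a median of 0.07, and 7 genes had both AG_CPI mice above and 1 had both below both AG mice.

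**Figure D4:**
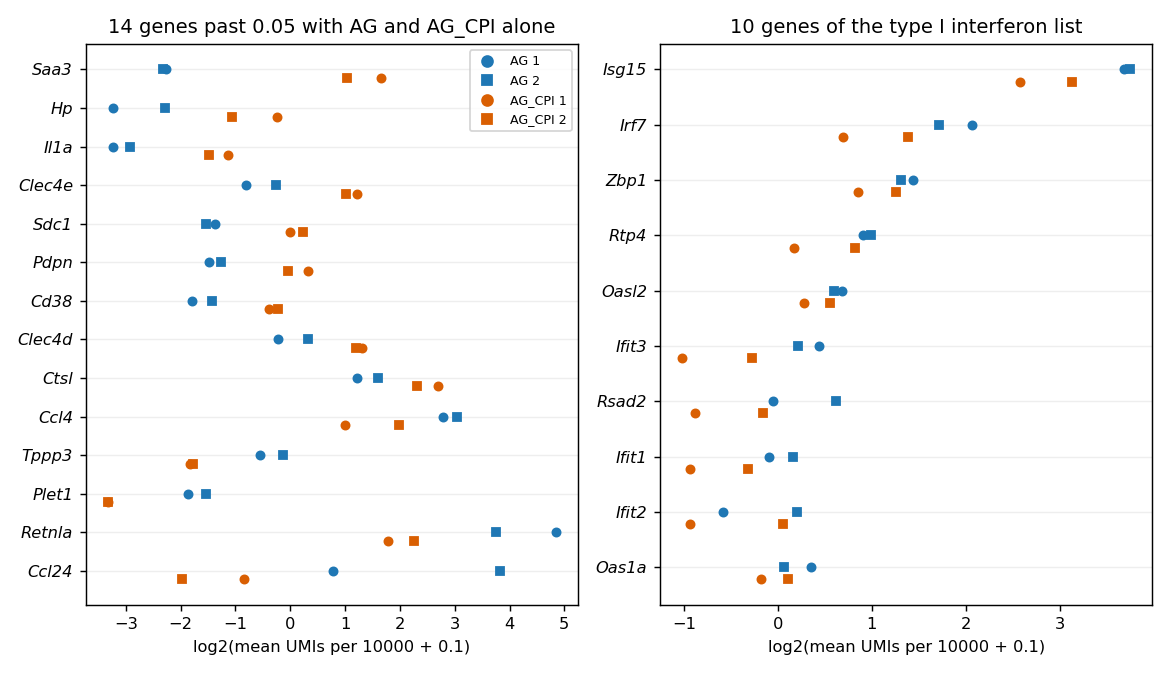
Mean level in the C1q-high macrophages of the 4 antigen mice (x axis, log2 of mean UMIs per 10000 plus 0.1) for the 14 genes past an adjusted p of 0.05 when these mice were fitted alone (left) and for 10 genes of the type I interferon list (right); each point is a mouse, circles are the first and squares the second of a group. Saa3 lies apart in both groups (0.107 and 0.101 against 3.03 and 1.94), and both AG_CPI mice lie left of both AG mice for Isg15.

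Within a mouse the member cells were not uniform. Cells with a Mrc1 UMI were 16 of 20 and 11 of 15 members in NO_AG, 16 of 120 and 87 of 424 in AG, and 36 of 190 and 29 of 175 in AG_CPI. After thinning to 1000 UMIs these shares were 60.0% and 60.0%, 7.50% and 9.67%, and 7.89% and 6.29%. As a share of all cells of the skin sample, members with a Retnla UMI were 0.181% and 0.244% in NO_AG, 0.20% and 0.450% in the AG mice and 0.115% and 0.272% in the AG_CPI mice, and the 95% Wilson intervals of the 6 mice overlap (0.0316 to 0.687 over all). Members with a Cd163 UMI were 0.121% and 0.147% of NO_AG cells, 0.0856% and 0.0858% of AG cells and 0.173% and 0.181% of AG_CPI cells, on 3 to 6 cells per mouse; the mouse values of the 3 groups lie apart, while the intervals of all 6 mice overlap. Members with a Cxcl9 UMI were 0% and 0.0244% of all cells in NO_AG, 2.86% and 5.77% in the AG mice and 8.47% and 6.70% in the AG_CPI mice. Members with a Mrc1 UMI were 0.322% and 0.269% of NO_AG cells, 0.457% and 1.87% of AG cells and 2.07% and 1.31% of AG_CPI cells. For Folr2 they were 0.161% and 0.244%, then 0.314% and 0.343%, then 0.691% and 0.498%. Keratinocyte-gated cells had a Mrc1 UMI in at most 0.610% and a Folr2 UMI in at most 0.113% of cells in any mouse. For Selenop (14.5% to 32.6% of keratinocyte-gated cells with antigen) and Ccl8 (6.11% to 16.0%, beside 9.17% and 6.13% of AG members) that background was large, and their shares are not compared. These shares of all cells are not thinned to 1 depth, and are a description with no test and no order read from them.

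In the 4 antigen mice, cells with a Mrc1 UMI had higher mean levels of Retnla, Folr2, Cd163, Clec10a, F13a1, Selenop and Ccl8 than cells without one. Pf4 was an exception in the first AG_CPI mouse, at 1.90 with Mrc1 and 2.44 without. A higher mean per cell does not show that these cells held most of a gene's UMIs. The split was chosen after the values were seen, uses genes of the same cells, and is a description with no test. Retnla averaged 215 and 64.6 per 10000 in the Mrc1 cells of AG and 17.7 and 28.0 in those of AG_CPI, and 0 to 0.130 in the cells without Mrc1. In the Mrc1 cells of NO_AG it averaged 178 and 407. Folr2 averaged 8.88 and 2.24 in the AG mice and 1.60 and 1.96 in the AG_CPI mice with Mrc1, and 0.0153 to 0.133 without. Ccl8 averaged 20.9 and 4.79 in the AG mice and 13 and 28.9 in the AG_CPI mice with Mrc1, against 0.684 and 0.343, and 4.46 and 2.74, without. Cxcl9 averaged 11.9 and 6.79 in the AG mice and 15.9 and 18.3 in the AG_CPI mice with Mrc1, against 28.9 and 15.3, and 29.3 and 35.5, without. Of the Mrc1 cells 56.3% and 43.7% in the AG mice and 63.9% and 75.9% in the AG_CPI mice also had a Cxcl9 UMI, and none of the 27 did in NO_AG. The share of keratinocyte-gated cells with one was 27.6% and 46.2% in the AG mice and 20% and 18.3% in the AG_CPI mice, so that in the second AG mouse the Mrc1 cells were not above this background. Median depth with and without Mrc1 was 3190 and 6896 UMIs in the first AG mouse, 3581 and 3586 in the second, and 5754 and 5570, then 6208 and 5840, in the AG_CPI mice.

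**Figure D5:**
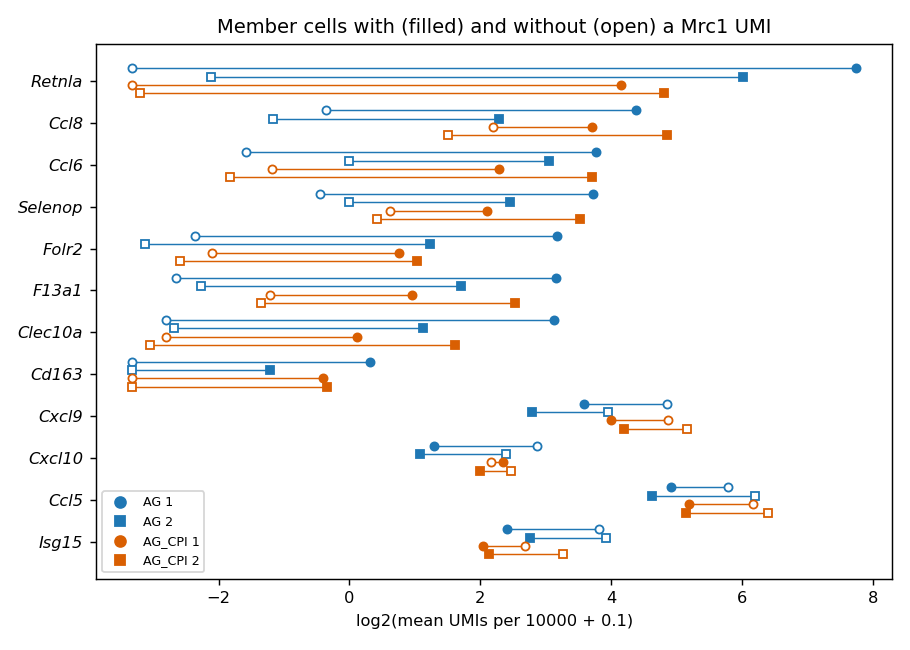
Mean level of 12 genes (x axis, log2 of mean UMIs per 10000 plus 0.1) in member cells with a Mrc1 UMI (filled) and without one (open), joined by a line for each of the 4 antigen mice; circles are the first and squares the second mouse. Filled symbols lie right of open ones for Retnla through Cd163 and left of them for Cxcl9 (11.9 and 6.79 with Mrc1 in AG, 28.9 and 15.3 without), Ccl5 and Isg15.

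Cells with a Saa3 UMI in AG_CPI held more Lyz2, at 159 against 67.5 and 139 against 44.7. None of the 37 and 26 had a Retnla UMI, beside 1.31% and 4.03% of the members without Saa3. In AG 0 and 1 of the 8 Saa3 cells of each mouse had one (0% and 12.5%), beside 6.25% and 4.81% of the others. Retnla was in too few cells for these numbers to show whether the 2 genes exclude each other. This split too was chosen after the values were seen, and Lyz2 is a gene of the definition.

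C1q-low myeloid cells of the same mice numbered 8 and 5 in NO_AG, 23 and 125 in the AG mice and 26 and 14 in the AG_CPI mice, and 167 of the 201 had no C1q UMI. With under 10 cells in each NO_AG mouse, only the difference between AG_CPI and AG could be set against that of the C1q-high cells. No gene of 2253 passed a test of that difference by limma, with 126 at an unadjusted p under 0.05. Levels with antigen overlapped for several of the genes above. Cxcl9 averaged 12.1 and 14.7 in C1q-low cells of AG and 23.2 and 23.2 in AG_CPI, beside 26.6 and 13.6, and 26.8 and 32.7, in the members. Ctss averaged 22.4 and 36.5 in the AG mice and 29.9 and 35.4 in the AG_CPI mice in C1q-low cells, below the 51.3 to 72.5 of the members in all 4 mice. Acp5 averaged 0.408 to 1.37 in C1q-low cells of these mice, below the 3.40 to 6.06 of the members. Mrc1 averaged 0 to 1.33 in the C1q-low cells of these mice.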

How the data were processed

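The deposited values were log10(1 + UMIs per 10000 UMIs of the cell), per the values themselves, and UMI counts recovered from them came out whole for 100% of values within 0.01. Cell Ranger 3.1 and mm10 are named in the submitters' processing notes. Members and gene lists (21 functional, 11 for other cell types, 367 of 385 listed genes with a column) were chosen with earlier results of these data known. Columns sharing a symbol were summed. Per mouse, the values back on the linear scale were averaged over members, scaled by TMM and tested on log2(mean + 0.1) with limma 3.58.1 in R 4.3.3 (trend, 3 groups in 1 fit, adjusted over 6571 genes). A gene needed 10 UMIs and a mean of 0.1 in 2 libraries. On simulated counts this fit called some unchanged low genes higher than in the shallow NO_AG mice, so the stricter fit is printed beside it. Named were up to 10 higher and 10 lower genes per comparison with the smallest p among calls with no overlap, outside the definition and other-cell-type lists, plus list members. Doublets were scored with Scrublet (scanpy 1.11.5). Each share is given per mouse with its own depth. No sample was dropped. Alternatives were scaling, pseudocount, filter, C1q threshold, doublets, thinning, block and each mouse left out.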

Additional observations from a re-analysis of the deposited data

Results flagged for a closer look

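A Y-linked transcript appeared outside the comparisons. Ddx3y, an RNA helicase gene of the Y chromosome, had 31 UMIs in the members of the first AG_CPI mouse (15.3% of 190 cells) and none in the members of the other 5 mice. Xist was detected in 0.526% of the same members, against 53.3% to 70.3% in the other mice. The gene counts of the fit over all mice and the shares were also computed without this mouse, and the fit of the 4 antigen mice was not.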

How the results depend on the processing

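Each adjusted count comes from limma. The AG count of 885 genes became 512 with the replicate block, 258 with no filter on low values, 529 with the deposited scaling alone, 430 with genes averaging at least 1 per 10000 and 331 in the stricter fit. The AG_CPI count of 937 against NO_AG became 609 with the block, 300 with no filter, 436 with a mean of at least 1 and 361 in the stricter fit. Between AG_CPI and AG the count of 0 became 1 with summed UMIs and 14 with those 4 mice alone. Leaving out each mouse gave 0 to 3185, 0 to 3256 and 0 to 23 genes in these 3 comparisons, and 0 to 26 for the difference from C1q-low cells, which gave 1 after thinning to 1000 UMIs. The cause was not tested. With the C1q threshold at 5, Mt2, called higher in both comparisons with NO_AG (log2 differences 1.84 and 1.75) with no UMI there, had differences of -0.50 and -0.55 (adjusted p = 0.851 and 0.826, limma). Replicate numbers only name the mice: same-numbered mice had correlations of -0.024, -0.010 and -0.038. Over 42 named gene and comparison pairs and 783 alternatives, none reversed and 103 lost the call, 102 of them on leaving out a mouse; the other was C4b in AG after thinning (adjusted p = 0.0544, limma). Comparisons of C1q-low with C1q-high cells against NO_AG were not run, with 8 and 5 C1q-low cells there. Depth limits NO_AG, where 3 UMIs are 0.489 and 0.448 per 10000.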
